A study of Homo sapiens with 4 samples.

Results

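The genes of Polycomb repressive complex 2 (PRC2) were compared between HUES8 cells labelled CPT2 KO and HUES8 cells labelled WT, with 2 RNA libraries of each. The genes were taken by symbol, as EZH2, EZH1, EED, SUZ12, RBBP4, RBBP7, JARID2, AEBP2, MTF2 and PHF19, and all 10 had a row in a table of 59050 genes. HUES8 is an established human embryonic stem cell line, here grown on Matrigel in mTeSR1 medium, and the treatment field reads WT for all 4 libraries. CPT2, carnitine palmitoyltransferase 2, works in the mitochondrial import of long-chain fatty acids for oxidation. The sources used here do not say how the CPT2 KO cells were made, how many clones they came from, or whether each replicate had its own culture, so the p-values rest on the spread between libraries, which may be technical. Library totals ran between 16887789 and 20460031 counts.

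PRC2 places methyl groups on lysine 27 of histone H3, the mark that keeps many developmental genes silent in embryonic stem cells. EZH2 or EZH1 carries the catalytic SET domain, EED reads the mark and stimulates the enzyme, SUZ12 is the scaffold, and RBBP4 or RBBP7 binds histones. Accessory subunits sort the complex into alternative forms: the Polycomb-like proteins MTF2 and PHF19 define PRC2.1, and JARID2 and AEBP2 define PRC2.2. Mouse embryonic stem cells that lack core subunits can still renew themselves but differentiate poorly, while in human ones the loss of core subunits is known to impair self-renewal as well.

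The CPT2 transcript was higher, not lower, in the libraries labelled CPT2 KO. As the sources do not say how the knockout was made, its transcript cannot test the labels, and groups are named as labelled. CPT2 stood at 233 and 170 counts in the libraries labelled CPT2 KO, against 52 and 72 counts in those labelled WT (log2 fold change 1.78 with an SE of 0.27, edgeR adjusted p = 0.0218). Leaving out replicate 1 labelled CPT2 KO ended that call (edgeR adjusted p = 0.168), and so did leaving out replicate 2 (0.0511). Pluripotency transcripts were high in every library, with POU5F1, the Oct4 gene, at 2109 and 2300 CPM in the libraries labelled CPT2 KO and 2017 and 1884 CPM in those labelled WT. CPM gives the counts of a gene relative to the library total, scaled by its TMM (trimmed mean of M values) factor. Replicate 1 labelled WT stood apart from replicate 2, as the chi-square between their counts was 43.6 per degree of freedom, against 11.3 for the pair labelled CPT2 KO. Mitochondrially encoded genes took 7.84% and 7.73% of the counts in the libraries labelled CPT2 KO, and 4.15% and 7.21% in replicates 1 and 2 labelled WT. The fold change of each subunit is therefore also given without the libraries that turn its direction.

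None of the PRC2 subunits differed between the groups past the threshold. All 10 passed the filter on low counts, and edgeR's quasi-likelihood test called none of them in either direction (0 of 10) at an adjusted p of 0.05 over 17564 tested genes, of which 0.416% were called. At an unadjusted p of 0.05, edgeR passed 1 of 10, EZH2, which was higher, where 9.04% of all tested genes passed, 4.88% higher and 4.16% lower. DESeq2 and limma-voom also called 0 of the subunits after adjustment, where they called 1.11% and 0.353% of all genes. With a library left out edgeR again called 0 of them, where it called 0.188% and 0.473% of all genes without replicates 1 and 2 labelled CPT2 KO, and 0.848% and 6.86% without replicates 1 and 2 labelled WT. With the replicate number as a block it called 0 of them and 2.12% of all genes. The log2 fold changes of the subunits lay between -0.30 and 0.37 with a median of -0.053 (0.0064 without replicate 1 labelled CPT2 KO and 0.113 without replicate 1 labelled WT), and the median over all tested genes was 0.0017. Their median absolute log2 fold change was 0.092, beside 0.207 over all tested genes and 0.144 over the 7965 tested genes that averaged at least 20 CPM, of which edgeR called 0.264%. A missed threshold does not show equal levels, and the intervals below give the changes that remain possible.

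**Figure D1:**
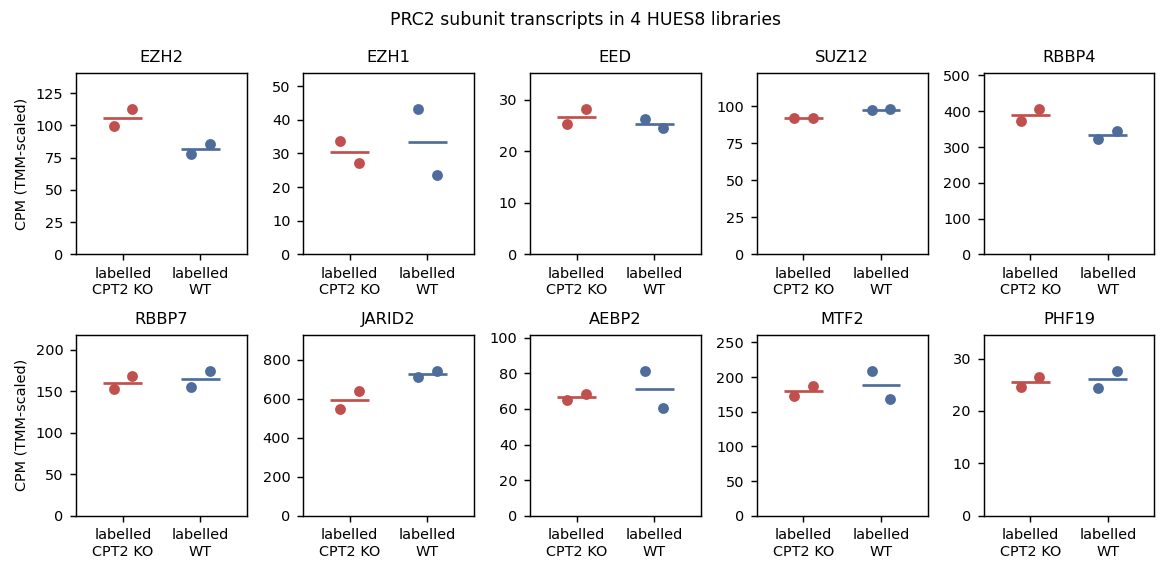
Points are the CPM of each library and bars the group means for the 10 PRC2 subunits, with the libraries labelled CPT2 KO on the left of each panel and those labelled WT on the right (2 each), and each vertical axis starting at 0. The groups do not overlap for EZH2 and RBBP4, which lie above in the libraries labelled CPT2 KO, or for SUZ12 and JARID2, which lie below.

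EZH2 (chr7:148807383-148884321, minus strand), the main methyltransferase of dividing cells, gave the largest fold change of the subunits. This and the following coordinates span whole protein-coding genes in GENCODE 29 on GRCh38. EZH2 reached 99.6 and 112 CPM in the libraries labelled CPT2 KO, against 78.1 and 85.9 CPM in the libraries labelled WT. Both libraries labelled CPT2 KO were above both labelled WT, by a log2 fold change of 0.37 (SE 0.14, 95% interval 0.057 to 0.683, edgeR unadjusted p = 0.0247, adjusted p = 0.467). Its paralogue EZH1 (chr17:42700275-42745049, minus strand), a weaker methyltransferase better known from resting cells, had 33.6 and 27.2 CPM in the libraries labelled CPT2 KO and 43.1 and 23.7 CPM in those labelled WT. The EZH1 values of the group labelled CPT2 KO lay between the 2 values labelled WT, which were 1.82-fold apart. Its log2 fold change was -0.13 (SE 0.27, 95% interval -0.749 to 0.488, edgeR adjusted p = 0.914). It was 0.36 without replicate 1 labelled WT, -0.50 without replicate 2 labelled WT, -0.30 without replicate 1 labelled CPT2 KO and 0.013 without replicate 2 labelled CPT2 KO, so single libraries set its sign. No 50-base stretch of an annotated EZH1 transcript occurred in an EZH2 transcript.

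EED (chr11:86244544-86278813, plus strand), the subunit that binds trimethylated lysine 27, came to 25.3 and 28.1 CPM in the libraries labelled CPT2 KO and 26.2 and 24.5 CPM in those labelled WT. The groups overlapped (log2 fold change 0.076, SE 0.17, 95% interval -0.303 to 0.455, edgeR adjusted p = 0.920), and the value was 0.150 without replicate 1 labelled CPT2 KO and 0.0031 without replicate 2 of that group. SUZ12 (chr17:31937018-32001045, plus strand), the scaffold, measured 91.7 and 92.0 CPM in the libraries labelled CPT2 KO, against 97.5 and 97.7 CPM in those labelled WT. Its replicates lay close together and the groups did not overlap, yet the difference was small (log2 fold change -0.088, SE 0.13, 95% interval -0.381 to 0.205, edgeR adjusted p = 0.864). SUZ12P1, a transcribed unprocessed pseudogene on the same chromosome, had 522 and 539 counts in the libraries labelled CPT2 KO and 436 and 458 in those labelled WT. Its transcripts share 11.0% of their 50-base stretches with SUZ12, so some reads of the pair are uncertain. With the pseudogene counts added to the parent, an alternative chosen after seeing the data, the SUZ12 log2 fold change was 0.0053 (edgeR adjusted p = 0.994).

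RBBP4 (chr1:32651142-32686211, plus strand) and RBBP7 (chrX:16839283-16870414, minus strand) are paralogous histone chaperones that also serve in histone deacetylase, chromatin assembly and nucleosome remodelling complexes. RBBP4 reached 374 and 405 CPM in the libraries labelled CPT2 KO, against 321 and 346 CPM in those labelled WT. The groups did not overlap, and the log2 fold change was 0.22 (SE 0.13, 95% interval -0.065 to 0.511, edgeR adjusted p = 0.635). RBBP7 had 153 and 168 CPM in the libraries labelled CPT2 KO and 155 and 175 CPM in those labelled WT. Its groups overlapped (log2 fold change -0.041, SE 0.14, 95% interval -0.343 to 0.261, edgeR adjusted p = 0.947), and its sign turned without replicate 2 labelled WT (0.047) or replicate 1 labelled CPT2 KO (0.025). No 50-base stretch was shared between the annotated transcripts of the paralogues. RBBP4 has processed pseudogenes, of which RBBP4P1 had 209 and 141 counts in the libraries labelled CPT2 KO and 160 and 209 in those labelled WT, with 23.0% of its 50-base stretches found in RBBP4. RBBP4P2, RBBP4P4 and RBBP4P5 had at most 8 counts in a library, and RBBP4P3, RBBP4P6 and EZH2P1 had 0 in all. RBBP4 exons overlap those of SYNC on the opposite strand over 1706 bases and RBBP7 exons those of TXLNG over 179 bases, and the strand setting of the counting is not given in the sources used here, so reads there are uncertain. SYNC had at most 1 count in any library, and TXLNG had 1509 to 2286.

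JARID2 (chr6:15246296-15522040, plus strand), which recruits and stimulates PRC2, had the highest count of the subunits. It came to 546 and 639 CPM in the libraries labelled CPT2 KO, against 713 and 744 CPM in those labelled WT. Both libraries labelled CPT2 KO were below both labelled WT, and the log2 fold change of -0.30 did not pass (SE 0.14, 95% interval -0.599 to 0.005, edgeR unadjusted p = 0.0533, adjusted p = 0.557). It was -0.19 without replicate 1 labelled CPT2 KO and -0.41 without replicate 2 of that group. The antisense gene JARID2-AS1 had 0 and 10 counts in the libraries labelled CPT2 KO and 0 and 1 in those labelled WT. AEBP2 (chr12:19404045-19720801, plus strand), the zinc finger partner of JARID2 in PRC2.2, measured 64.8 and 68.2 CPM in the libraries labelled CPT2 KO and 81.5 and 60.7 CPM in those labelled WT. The AEBP2 values labelled CPT2 KO lay inside the range of those labelled WT (log2 fold change -0.096, SE 0.17, 95% interval -0.465 to 0.273, edgeR adjusted p = 0.889). Leaving out replicate 1 labelled WT gave 0.13, and leaving out replicate 2 of that group gave -0.29.

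MTF2 (chr1:93079235-93139081, plus strand), the Polycomb-like protein that binds CpG-rich DNA, reached 173 and 188 CPM in the libraries labelled CPT2 KO and 209 and 168 CPM in those labelled WT. The groups overlapped (log2 fold change -0.066, SE 0.15, 95% interval -0.391 to 0.259, edgeR adjusted p = 0.920), with values of 0.099 without replicate 1 labelled WT and -0.21 without replicate 2 of that group. PHF19 (chr9:120855652-120894896, minus strand), the Polycomb-like protein that reads methylated lysine 36 of histone H3, had 24.5 and 26.5 CPM in the libraries labelled CPT2 KO and 24.4 and 27.7 CPM in those labelled WT. Its groups overlapped too (log2 fold change -0.033, SE 0.17, 95% interval -0.416 to 0.351, edgeR adjusted p = 0.968). Its sign turned when replicate 2 labelled WT (0.061) or replicate 1 labelled CPT2 KO (0.023) was left out.

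**Figure D2:**
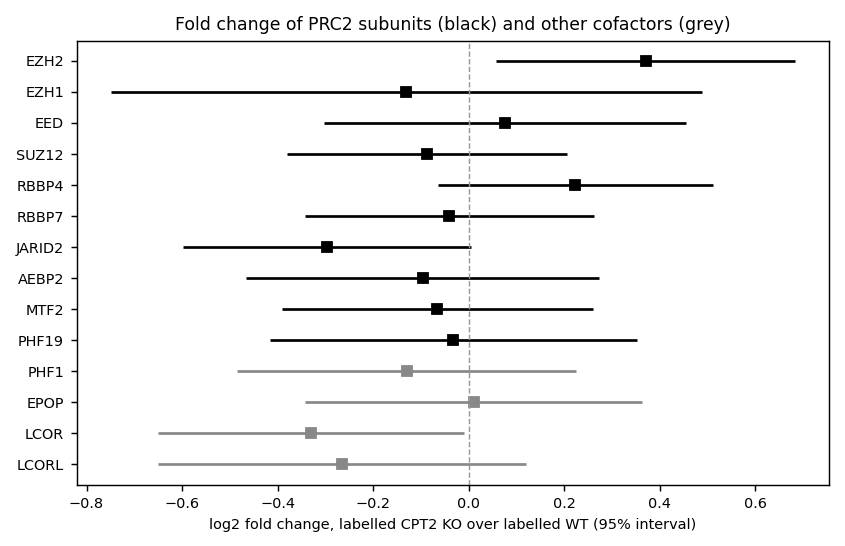
Squares are edgeR log2 fold changes of labelled CPT2 KO over labelled WT and lines their unadjusted 95% intervals, for the 10 subunits in black and 4 other PRC2 cofactors in grey. The intervals of EZH2 (0.057 to 0.683) and LCOR exclude 0 before adjustment, and the adjusted p of both is above 0.05.

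**Figure D3:**
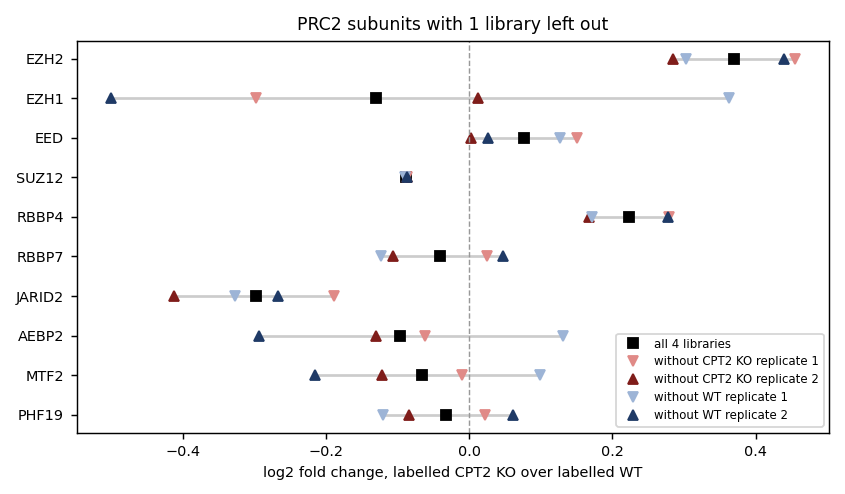
Squares are the log2 fold changes of the 10 subunits from all 4 libraries and triangles those with 1 library left out. EZH2, RBBP4 and EED stay above 0 and JARID2 and SUZ12 below 0 in each case, while EZH1, AEBP2, MTF2, PHF19 and RBBP7 lie on both sides.

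In all, the groups did not overlap in CPM for 4 of the 10 subunits, 2 above and 2 below, where 40.9% of all tested genes did not overlap, 21.1% above and 19.8% below. Among tested genes of at least 20 CPM, 41.6% did not overlap, so the share of the subunits is near that of the whole table. The stretches of DNA before the start sites of these 4 genes are printed as a description only. A share so near that of all genes does not set the 4 apart from the other subunits. Any link of the motifs to the values was not tested. They come from RefSeq on GRCh38.p14, read 5′ to 3′ on the strand of the gene, and end before both the RefSeq start and the GENCODE 29 start. Capitals mark CCAAT or its reverse complement, the box bound by NF-Y, and TTTNNCGC or its reverse complement, a loose form of the E2F site, and no match of the 2 motifs overlapped.
EZH2 (chr7:148884322-148884541, minus strand): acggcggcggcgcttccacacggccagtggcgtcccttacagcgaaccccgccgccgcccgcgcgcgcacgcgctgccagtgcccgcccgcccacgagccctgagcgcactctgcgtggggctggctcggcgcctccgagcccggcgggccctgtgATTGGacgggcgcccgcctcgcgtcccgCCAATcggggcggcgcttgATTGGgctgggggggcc
RBBP4 (chr1:32650958-32651141, plus strand): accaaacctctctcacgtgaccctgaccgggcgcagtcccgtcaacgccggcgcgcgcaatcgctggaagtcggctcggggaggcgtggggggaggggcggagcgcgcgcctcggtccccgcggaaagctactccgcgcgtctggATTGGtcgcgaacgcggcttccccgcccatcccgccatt
SUZ12 (chr17:31936757-31937006, plus strand): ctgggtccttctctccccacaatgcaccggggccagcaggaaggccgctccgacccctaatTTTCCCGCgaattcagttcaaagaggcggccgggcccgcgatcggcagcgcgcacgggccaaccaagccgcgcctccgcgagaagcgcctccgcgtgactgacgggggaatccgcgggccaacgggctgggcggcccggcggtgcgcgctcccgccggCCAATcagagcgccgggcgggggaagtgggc
JARID2 (chr6:15245819-15246068, plus strand): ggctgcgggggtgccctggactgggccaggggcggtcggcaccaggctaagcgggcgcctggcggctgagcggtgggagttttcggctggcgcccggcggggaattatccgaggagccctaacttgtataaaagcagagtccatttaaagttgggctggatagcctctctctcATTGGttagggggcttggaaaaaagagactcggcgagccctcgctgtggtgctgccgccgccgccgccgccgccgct
The EZH2 stretch held 3 CCAAT boxes, a number reached in 2.61% of 27305 RefSeq promoter stretches of the same position and length. The RBBP4, SUZ12 and JARID2 stretches held 1 each, as 25.5%, 33.0% and 33.0% of all matched stretches held at least 1. TTTNNCGC occurred 1 time before SUZ12 and was in 5.92% of all stretches of that length, and these letters were not found in the EZH2, RBBP4 and JARID2 windows. The windows of EZH1, MTF2 and RBBP7, not printed, held 0 CCAAT boxes, and those of EZH1 and RBBP7 held 1 TTTNNCGC each. EED, AEBP2 and PHF19 had windows too short to use.

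Levels were compared between subunits per length of transcript, as RPKM, the CPM per kilobase of transcript, from the deposited gene lengths. JARID2 was the most abundant at 106 ± 14.1 RPKM (SD, n = 4 libraries), above 98.4% of tested genes. RBBP4 (38.2 ± 3.81), MTF2 (31.2 ± 3.11), RBBP7 (22.0 ± 1.40) and EZH2 (20.8 ± 3.35) followed, and SUZ12 stood at 14.5 ± 0.509 and AEBP2 at 10.2 ± 1.33 RPKM. EZH1 (4.56 ± 1.22), PHF19 (3.91 ± 0.241) and EED (3.83 ± 0.231 RPKM) were lowest. The ranges over the 4 libraries overlapped between RBBP4 and MTF2, between RBBP7 and EZH2, between EZH1 and PHF19 and between PHF19 and EED, so the order within these pairs does not exceed their spread. The order by group mean was EZH2 before RBBP7 in the libraries labelled CPT2 KO and RBBP7 before EZH2 in those labelled WT, and likewise EED before PHF19 and PHF19 before EED. The deposited length counts all annotated exons, so a gene with long exons that these cells rarely use is understated on this scale.

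**Figure D4:**
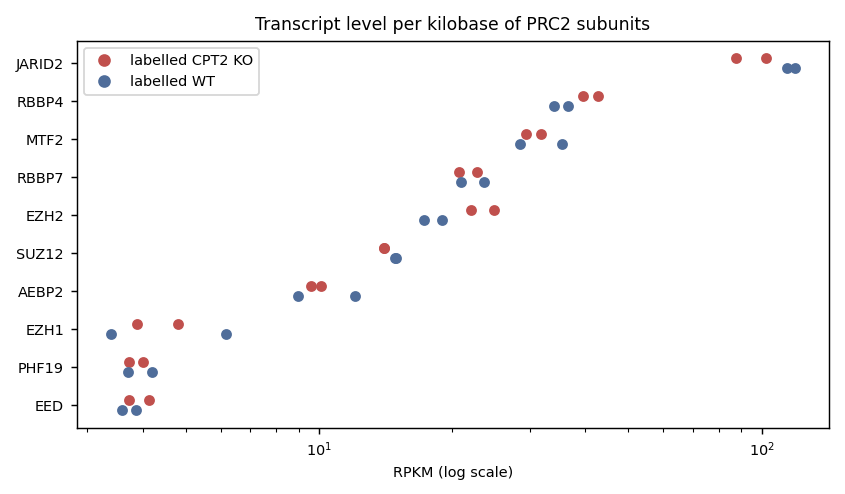
Points are the RPKM (log scale) of each PRC2 subunit in the 2 libraries labelled CPT2 KO and the 2 labelled WT, ordered by mean level. JARID2 lies above all others in each library, and EZH1, PHF19 and EED lie together at the low end.

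Within each kind of subunit, 1 gene held most of the summed RPKM. EZH2 made up 82.1% and 86.5% of the summed EZH2 and EZH1 RPKM in the libraries labelled CPT2 KO, and 73.7% and 84.9% in those labelled WT, the lowest share being in replicate 1 labelled WT. JARID2 made up 90.1% to 93.0% of JARID2 plus AEBP2 over the 4 libraries. MTF2 made up 64.1% to 69.1% of the Polycomb-like genes MTF2, PHF19 and PHF1, with PHF1 at 22.1% to 26.7% and PHF19 at 7.16% to 9.44%. RBBP4 made up 65.6% and 65.3% of RBBP4 plus RBBP7 in the libraries labelled CPT2 KO, and 61.8% and 60.7% in those labelled WT.

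Ratios between subunits within a library do not depend on library scaling, and 6 were compared. The smallest p that an exact two-sided permutation test of 2 against 2 libraries can give is 0.333, so none could pass 0.05. SUZ12 per EZH2 had a length-adjusted ratio of 0.636 and 0.565 in the libraries labelled CPT2 KO, against 0.862 and 0.785 in those labelled WT (difference of mean log2 ratios -0.46, exact permutation p = 0.333, adjusted over the 6 ratios 0.667). EED per EZH2 had 0.169 and 0.166 in the libraries labelled CPT2 KO, against 0.223 and 0.189 in those labelled WT (difference -0.29, and -0.41 to -0.175 with a library left out, exact permutation p = 0.333, adjusted 0.667). Both core partners were thus lower per EZH2 in the 2 libraries labelled CPT2 KO than in the 2 labelled WT, and both ratios share the EZH2 value. RBBP4 per RBBP7 had 1.91 and 1.88 in the libraries labelled CPT2 KO, against 1.62 and 1.55 in those labelled WT, again with no overlap (difference 0.26, exact permutation p = 0.333, adjusted 0.667). The ratios of EZH2 to EZH1 (4.58 and 6.39 labelled CPT2 KO, 2.80 and 5.60 labelled WT), MTF2 to PHF19 (7.89 and 7.91 labelled CPT2 KO, 9.57 and 6.79 labelled WT) and JARID2 to MTF2 (2.99 and 3.23 labelled CPT2 KO, 3.23 and 4.18 labelled WT) did not separate the groups beyond the spread of their replicates (exact permutation p = 0.667, 1 and 0.667, adjusted 0.8, 1 and 0.8). With a library left out the difference lay between -0.050 and 0.95 for EZH2 to EZH1 (0.45 with all libraries), between -0.28 and 0.22 for MTF2 to PHF19 (-0.029) and between -0.43 and -0.056 for JARID2 to MTF2 (-0.24), the ends being the values without 1 library labelled WT.

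Of the other PRC2 cofactors, 4 of 5 with a row were tested and edgeR called 0, with 1 at an unadjusted p under 0.05. Over all tested genes edgeR called 0.416%, and 9.04% had an unadjusted p under 0.05. LCOR, whose locus encodes the PALI1 cofactor of PRC2.1, came to 52.1 and 49.5 CPM in the libraries labelled CPT2 KO, against 61.5 and 66.4 CPM in those labelled WT (log2 fold change -0.33, SE 0.14, edgeR unadjusted p = 0.0439, adjusted p = 0.540). Its relative LCORL, the locus of PALI2, did not overlap between the groups either (log2 fold change -0.26, edgeR adjusted p = 0.665). Leaving out replicates 1 and 2 labelled WT in turn gave -0.13 and -0.39, and 1631 bases of its exons overlap those of NCAPG on the opposite strand, a gene with 1380 to 2223 counts in a library, so its reads are uncertain. PHF1, the third Polycomb-like protein, and EPOP, a PRC2.1 cofactor that binds Elongin, differed by -0.13 and 0.010 in log2 fold change (edgeR adjusted p = 0.825 and 0.990). The PHF1 value was -0.26 without replicate 1 labelled CPT2 KO and -0.012 without replicate 2 of that group. EZHIP, an inhibitor of PRC2 known from germ cells and some brain tumours, was near absent at 5 and 3 counts in the libraries labelled CPT2 KO and 4 and 5 in those labelled WT, below the filter.

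The partner complex PRC1, which ubiquitinates histone H2A and can bind the PRC2 mark through its CBX subunits, gave 0 edgeR calls among 30 tested genes, with 0 higher and 2 lower at an unadjusted p under 0.05 and 0 calls by DESeq2. Over all tested genes edgeR called 0.416% and DESeq2 1.11%, and 4.88% were higher and 4.16% lower at an unadjusted p under 0.05 in edgeR. The median log2 fold change of the PRC1 genes was -0.13 (-0.17 to -0.039 with a library left out), and 11 members had positive and 19 negative values. CBX8, a chromodomain subunit, measured 2.52 and 3.07 CPM in the libraries labelled CPT2 KO and 1.90 and 1.02 CPM in those labelled WT (log2 fold change 0.95, SE 0.43, edgeR adjusted p = 0.552). This became 1.44 when replicate 1 labelled WT was left out, and 0.55 when replicate 2 was. BMI1, a RING finger partner, had a log2 fold change of 0.62 (SE 0.34, edgeR adjusted p = 0.617), between 0.42 and 0.88 with a library left out. Its exons share 1000 bases with those of COMMD3-BMI1 on the same strand, so its reads are uncertain. Without replicate 2 labelled WT, where 6.86% of all genes were called, PHC1 and KDM2B were called lower, and these were chosen after their values were seen. KDM2B reached 125 and 122 CPM in the libraries labelled CPT2 KO, against 248 CPM in replicate 1 and 127 CPM in replicate 2 labelled WT, so that replicate 2 lay close to the libraries labelled CPT2 KO.

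H3K27 demethylases and trithorax group genes, which oppose Polycomb silencing, gave 0 edgeR calls among 20 tested genes, with 0 higher and 2 lower at an unadjusted p under 0.05 and 0 calls by DESeq2 (median log2 fold change -0.11, 7 positive and 13 negative). That median was -0.22 without replicate 1 and 0.0023 without replicate 2 labelled CPT2 KO. Beside the counts of this list and the next, edgeR called 0.416% of all tested genes and DESeq2 1.11%. At an unadjusted p under 0.05 in edgeR, 4.16% of all tested genes were lower. KDM6A, which removes the PRC2 mark, had 119 and 102 CPM in the libraries labelled CPT2 KO, against 189 and 141 CPM in those labelled WT. The groups did not overlap, and the log2 fold change was -0.58 (SE 0.17, edgeR unadjusted p = 0.0057, adjusted p = 0.275). It was called without replicate 2 labelled WT (log2 fold change -0.78) and was -0.35 without replicate 1 labelled WT. KDM6B, the stress- and signal-responsive demethylase, came to 19.8 and 10.1 CPM in the libraries labelled CPT2 KO and 50.2 and 8.25 CPM in those labelled WT. Its log2 fold change of -0.95 (SE 1.20, edgeR adjusted p = 0.856) was 0.88 without replicate 1 labelled WT and -1.73, then called, without replicate 2 labelled WT. In that setting DPY30 was also called higher and KMT2C lower, named after their values were seen. Among 25 tested genes of the other complexes that use RBBP4 or RBBP7, edgeR called 0, with 1 lower at an unadjusted p under 0.05 and 0 calls by DESeq2 (median log2 fold change -0.027, and 0.021 without replicate 2 labelled WT). MBD2 and CHD4 had the largest values at -0.43 and 0.35 (edgeR adjusted p = 0.560 and 0.635). CHD4 exons overlap those of AC006064.6 on the same strand over 5964 bases, 46.9% of their length, so its reads are uncertain. With a library left out MBD2 lay between -0.60 and -0.28 and CHD4 between 0.12 and 0.55, the ends of both being the values without replicates 1 and 2 labelled CPT2 KO.

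Developmental regulators known as PRC2 targets in human embryonic stem cells were mostly silent, and those that passed the test went both ways. Of 103 with a row, 18 had 0 counts in every library, 64 averaged under 1 CPM and 43 passed the filter. edgeR called 2 higher and 5 lower among the 43, where 0.359% and 0.0569% of all tested genes were called higher and lower. A silent gene that passed the filter through 1 group had to differ, so the count over those tested describes them only. TBX3, a T-box factor of early development, rose to 14.0 and 13.7 CPM in the libraries labelled CPT2 KO, against 5.91 and 4.32 CPM in those labelled WT (log2 fold change 1.44, SE 0.25, edgeR adjusted p = 0.0396). PAX7, a neural crest and muscle regulator, fell to 4.41 and 3.98 CPM in the libraries labelled CPT2 KO, against 21.9 and 23.5 CPM in those labelled WT (log2 fold change -2.43, SE 0.22, edgeR adjusted p = 0.000936). SOX1, a neural progenitor factor, fell to 0.742 and 0.301 CPM in the libraries labelled CPT2 KO, against 4.44 and 6.31 CPM in those labelled WT (edgeR adjusted p = 0.0164). SIX6, a factor of the developing eye, had 2 and 1 counts in the libraries labelled CPT2 KO and 24 and 67 in those labelled WT, a ratio of 0.035 with a counting interval of 0.0071 to 0.106 (edgeR adjusted p = 0.0382).

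The Hox genes HOXC4 and HOXD10, which pattern the body axis, fell as well, with log2 fold changes of -1.72 and -1.94 (adjusted p = 0.0332 and 0.0466 in edgeR), and their exons overlap those of neighbouring Hox genes, so their reads are uncertain. Of the 32 Hox genes in the list, 12 had 0 counts in every library and 11 were tested. Of these 11, 10 had negative log2 fold changes (median -0.99), where 50.3% of all tested genes had positive ones. Some share exons with a neighbour, so they are not all independent. HOXD11, named after its values were seen, had 6 and 25 counts in the libraries labelled CPT2 KO and 49 and 104 in those labelled WT. It passed the filter only through the libraries labelled WT. That favours a negative value, so the count of signs describes the tested Hox genes only. Of the 32 tested regulators outside the Hox clusters, 16 had positive and 16 negative values (median -0.065). The calls of TBX3, SIX6, HOXC4 and HOXD10 ended without replicate 1 and also without replicate 2 labelled CPT2 KO, that of SOX1 without replicate 2 alone, while PAX7 was called with each library left out. FOXA2 and EOMES, endoderm and mesendoderm factors, had the largest log2 fold changes among regulators of at least 1 CPM and were not called (edgeR adjusted p = 0.385 and 0.569), with 152 and 867 counts in replicate 1 labelled CPT2 KO, 10 and 109 in replicate 2, and between 1 and 12 in those labelled WT. EOMES was called by DESeq2 (adjusted p = 0.0025) and by edgeR without replicate 1 (adjusted p = 0.011) or replicate 2 (3.0e-06) labelled CPT2 KO, and FOXA2 by edgeR without replicate 2 of that group (0.00026). DESeq2 called 6 target regulators higher and 6 lower, where it called 1.11% of all tested genes in either direction. The number of target regulators that edgeR called moved with the library left out, as did the share of all tested genes called, given above.

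**Figure D5:**
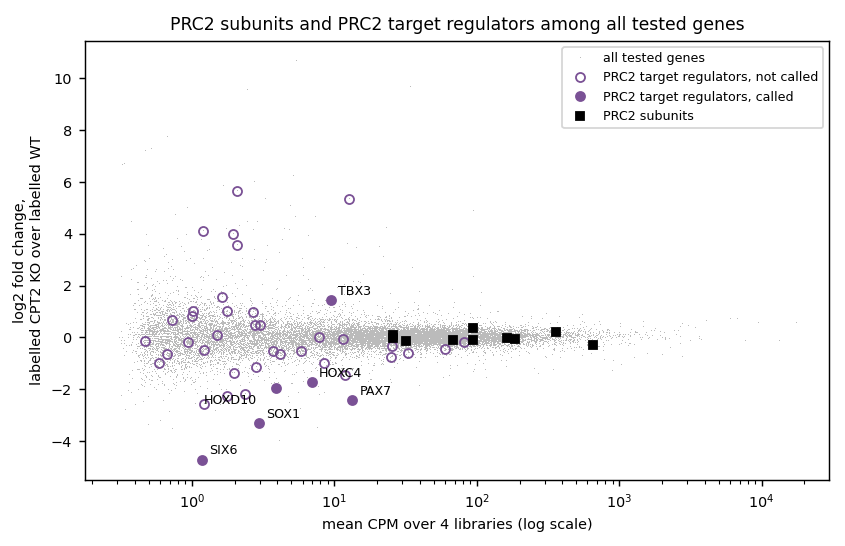
Each point is a tested gene by its mean CPM (log scale) and its log2 fold change of labelled CPT2 KO over labelled WT, with PRC2 subunits as black squares and PRC2 target regulators as circles, filled where called by edgeR. The subunits lie between -0.30 and 0.37, while the 6 called regulators marked lie between -4.72 (SIX6) and 1.44 (TBX3) at mean levels under those of every subunit.

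Markers of other cell states were also called between the groups. Mesendoderm markers had a summed level of 358 and 123 CPM in the libraries labelled CPT2 KO and 12.5 and 15.1 CPM in those labelled WT. Of 11 tested, edgeR called 5 higher, namely NODAL, LEFTY1, LEFTY2, FGF8 and WNT3, and 0 lower, where 0.359% of all tested genes were called higher. LEFTY1, LEFTY2 and FGF8 had 4 to 13 counts in the libraries labelled WT and passed the filter only through those labelled CPT2 KO. CER1 did so too, as did TBXT, GATA4 and GSC, named after their values were seen, with 0 to 9 counts in the libraries labelled WT. That favours a higher value, so the calls in this list describe the tested genes only. NODAL and WNT3 had 50 to 126 counts in the libraries labelled WT. Exons of LEFTY1 (46.6%) and NODAL (41.2%) overlap those of other genes, so their reads are uncertain. DESeq2 called 11 of the 11, where it called 1.11% of all tested genes. WNT3 had a log2 fold change of 1.78 without replicate 1 labelled CPT2 KO, against 2.13 with all libraries, and its edgeR call ended there. SOX1 and SIX6 were called lower of 7 tested neural markers, where 0.0569% of all tested genes were called lower. Both passed the filter only through the libraries labelled WT. The summed level of the neural markers was 500 and 453 CPM labelled CPT2 KO, and 433 and 439 CPM labelled WT. Of 7 tested fibroblast markers, 0 were called (467 and 452 CPM labelled CPT2 KO, 488 and 516 CPM labelled WT). Of 13 tested pluripotency markers, ZFP42 was called higher (log2 fold change 0.98, edgeR adjusted p = 0.0164), a call that ended without replicate 1 (edgeR adjusted p = 0.0727) or replicate 2 (0.0898) labelled CPT2 KO. In bulk RNA, fewer cells of a type and less RNA per cell cannot be told apart, and the part of these cell states in the values of the subunits and of their targets was not tested. Proliferation genes, with which EZH2 is known to be transcribed in dividing cells, had 0 calls among 18 tested genes in edgeR and in DESeq2, with 1 higher, PCNA, at an unadjusted p under 0.05, and a median log2 fold change of 0.12 that was 0.016 without replicate 1 labelled WT. PCNA, the replication clamp, measured 285 and 338 CPM in the libraries labelled CPT2 KO and 212 and 274 CPM in those labelled WT (edgeR adjusted p = 0.543), and its part in the EZH2 values was likewise not tested. Of the 18 proliferation genes, 11 had positive and 7 negative log2 fold changes. At an unadjusted p under 0.05 in edgeR, 4.88% of all tested genes were higher. Without replicate 2 labelled WT, the log2 fold changes of PCNA, CCNE1 and RRM2 were 0.56, 0.88 and 0.57, against 0.36, 0.39 and 0.28 with all libraries. TOP2A and MKI67, of the same list, had negative log2 fold changes of -0.27 and -0.17 with all libraries. RRM2, TOP2A and MKI67 were named after their values were seen.

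The genes most like EZH2 over the 4 libraries, by the root mean square difference of log2 CPM from each gene's mean, were RPS18, CHCHD1 and DERL2, at 0.013, 0.016 and 0.018. With 4 libraries likeness is common, and 722 of 10137 compared genes lay within 0.1 of EZH2.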

How the data were processed

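Total RNA of 2 libraries labelled CPT2 KO and 2 labelled WT was sequenced. Deposited values are unnormalized read counts for each gene beside its length, per the file headers. Tools were HISAT2 2.1.0 and featureCounts 1.6.4 with GRCh38, per the submitters' processing notes. The sources used here give no strand setting, treatment of multiply aligned reads or annotation release. The subunits and lists were chosen with earlier results of these data known.

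Genes were filtered with filterByExpr of edgeR and scaled by TMM, the trimmed mean of M values. Groups were compared with the quasi-likelihood test of edgeR 4.0.16 in R 4.3.3, robust, on group alone, and p-values were adjusted by Benjamini-Hochberg across all tested genes, with a threshold of 0.05. The SE is the log2 fold change over the square root of F, and intervals use the moderated degrees of freedom. One count was worth 0.0485 to 0.0603 CPM, and counting intervals are exact binomial at 95%, covering counting error only. Alternatives were other scalings and filters, DESeq2 1.42.0, voom of limma 3.58.1, a replicate block, each library left out, mitochondrial genes left out and, added after seeing the data, pseudogene counts added and the legacy estimate of the spread. The fit was tested on simulated data. Named genes were drawn from the subunits, CPT2, the other cofactors, each list's called genes and its 2 largest changes of at least 1 CPM, pseudogenes and antisense genes of subunits, and the 3 genes most like EZH2 of at least 10 CPM. POU5F1 and genes said to be chosen after their values were seen fall outside this rule. One called gene of the target list is counted but not reported here. Positions and exon overlaps come from GENCODE 29 on GRCh38.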

Additional observations from a re-analysis of the deposited data

How the results depend on the processing

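The PRC2 subunits had 0 calls in either direction under all 15 alternatives, and the log2 fold changes of EZH2 (0.28 to 0.46), RBBP4 (0.17 to 0.28), EED (0.0031 to 0.150) and JARID2 (-0.41 to -0.19) kept their sign under each, with these ranges when a library was left out. The median over the subunits ranged from -0.085 to 0.113 with a library left out, the highest without replicate 1 labelled WT. With a library left out, EZH1 ranged from -0.50 to 0.36, AEBP2 from -0.29 to 0.13, MTF2 from -0.21 to 0.099, PHF19 from -0.12 to 0.061, RBBP7 from -0.12 to 0.047, RBBP4P1 from -0.15 to 0.14, KDM6B from -1.73 to 0.88 and CPT2 from 1.64 to 1.95. SUZ12 turned to 0.0053 with pseudogene counts added, EPOP to -0.012 with library size only and RBBP4P1 to -0.016 with library size only, -0.0038 with no low count filter and -0.0011 with mitochondrial genes left out. With a library left out EPOP ranged from -0.056 to 0.078. The causes were not tested.

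PRC2 target regulators had 4 higher calls with no low count filter, 6 with DESeq2, 7 with the replicate block and 2 to 6 with a library left out, and lower calls of 2 with limma-voom, 10 with the replicate block and 1 to 11 with a library left out. Mesendoderm markers had 11 higher calls with DESeq2, 10 with the replicate block and 7 to 11 with a library left out. Neural markers had 1 lower call with limma-voom and 0 to 2 with a library left out, and fibroblast markers 1 higher call with DESeq2, 1 with the replicate block and 0 to 1 with a library left out. With a library left out, pluripotency markers had 0 to 2 higher calls, PRC1 subunits 0 to 2 lower calls, H3K27 demethylases and trithorax group genes 0 to 1 higher and 0 to 3 lower calls and proliferation genes 0 to 3 higher calls. The H3K27 demethylase and trithorax list had 1 lower call, KDM6A, with the replicate block, and EOMES and FOXA2 were called higher with it. Differences between replicates 1 and 2 correlated at 0.173 over genes between the groups, on 2 pairs, so the numbers are not taken to pair the libraries. With the replicate block all genes gave 233 higher and 140 lower calls, against 63 and 10 without it. DESeq2 gave 149 and 46, no filter 101 and 23, and with a library left out higher calls ran from 31 to 531 and lower calls from 2 to 674, the most without replicate 2 labelled WT. A lone library left in a group is assumed to vary like the others.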
